A study of Arabidopsis thaliana with 24 samples.

Results

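A set of 7 genes of the NAC transcription factor family, other than the DNA damage factors NAC044 and NAC085, was followed in root tips of Arabidopsis thaliana: NAC001, NAC032, NAC053, NAC078, NAC083, NAC087 and NAC103. They are 7 of the 33296 named genes in the count table, and all 7 passed the filter on low counts. They were picked by identifier, with the response of these same libraries to zeocin already known, so their zeocin changes are a description: counts past the threshold of the fit over all genes are given beside the share of all genes, with no p-value, and support nothing. Their differences between genotypes were not used to pick them, and those were tested. The libraries came from tips of the primary root of seedlings at 6 days. The wild type (WT) was Columbia-0, and the mutant was brl3-2, a single T-DNA line of BRL3, which encodes a brassinosteroid receptor related to BRI1. Seedlings spent 2 h in liquid medium that held DMSO (mock) or zeocin, a bleomycin-type antibiotic that cuts DNA. The sample titles name the mock 'control condition' in WT and 'control condition2' in brl3-2, and both were treated as mock. A difference between these controls, if there was one, cannot be told apart from genotype in mock. Because the labels give conflicting zeocin doses, none is attached to the values. Each of the 4 groups had 3 libraries that the labels call biological replicates, and how many root tips were pooled in each is not given in the sources used here.

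NAC proteins are plant transcription factors that share a DNA-binding domain near the amino terminus and differ in the rest of the protein, which activates or represses transcription. Many are themselves switched on by stress, and a group known as NTL carries a transmembrane segment that keeps the protein in a membrane until it is released and enters the nucleus. In roots, family members act in root cap maturation, in vessel formation and, through SOG1 and its targets NAC044 and NAC085, in the arrest of growth after DNA damage.

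Of these genes, NAC103 has been placed downstream of the endoplasmic reticulum stress factor bZIP60 and, in DNA damage, downstream of SOG1. NAC053 (also NTL4) and NAC078 (also NTL11) are membrane-anchored factors that activate genes of the proteasome when its activity is short. NAC001 (also NTL10) is little studied. NAC087 acts with NAC046 in the programmed death of root cap cells. NAC083, also called VNI2, binds the vessel regulator VND7 and represses vessel formation. NAC032 belongs to the ATAF subgroup, which responds to abscisic acid, drought and oxidative stress.

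Library totals ran from 32668516 to 38276389 counts in 10 libraries, with 70212858 and 73481046 in the mock and zeocin libraries of WT numbered 3. The libraries numbered 3 stood apart from the others of their group for several members, and values without them are given after the results by gene. BRL3 averaged 10.9 ± 1.73 counts per 1000000 (CPM; SD, n = 3) in WT mock and 28.1 ± 5.75 in WT zeocin, against 1.01 ± 0.285 and 1.00 ± 0.0633 in brl3-2. Summed levels of 5 markers of the root meristem and its stem cell niche were 67.3 to 76.1 CPM in WT mock and 61.4 to 68.3 CPM in WT zeocin, which overlap, and 68.6 to 77.2 CPM in brl3-2 mock and 61.6 to 67.7 CPM in brl3-2 zeocin, which do not. Most of each sum came from SCR, with group means of 38.7 to 42.0 CPM, and SHR, with 17.5 to 21.4 CPM. Of the 5 markers 1 was called, WOX5 of the quiescent centre, which fell in brl3-2 with zeocin (log2 change -1.36 ± 0.35 SE, adjusted p = 0.048, edgeR) and had -0.57 ± 0.32 in WT (adjusted p = 0.52). WOX5 was low, at a mean of 0.77 CPM in brl3-2 mock and 0.30 CPM in brl3-2 zeocin. In WT it had 0.75 and 0.49 CPM. Its difference between responses (-0.79 ± 0.48) was not called, and its call was not rechecked under other settings. In brl3-2, 1045 of the 19437 genes tested were called with zeocin, 840 of them upward. The part of the meristem and niche markers in the members' values was not tested. Summed levels of 4 root cap markers were 18.4 to 29.2 CPM. In mock replicates 1, 2 and 3 these sums were 28.1, 29.2 and 18.4 CPM in WT and 28.3, 27.5 and 21.1 CPM in brl3-2. With zeocin they were 24.1 to 25.6 CPM in WT and 26.1 to 29.1 CPM in brl3-2. The part of the root cap in the members' values was not tested. Summed levels of 7 photosynthesis genes of the shoot were 18.0 to 36.3 CPM in 11 libraries and 226.8 CPM in brl3-2 mock replicate 2. In tissue samples such as these, fewer cells of a type and less RNA per cell cannot be told apart.

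NAC103 was the member with the largest fold difference between treatments. In mock libraries it was close to silent, at 0.774, 0.358 and 0.151 CPM in WT and 0.727, 0.458 and 0.218 CPM in brl3-2, which corresponds to 50 and 48 reads in all. With zeocin it stood at 18.9, 19.8 and 7.98 CPM in WT, from 1840 reads. In brl3-2 with zeocin it stood at 15.8, 18.2 and 8.67 CPM, from 1452 reads. Every zeocin library was above every mock library, and the replicate numbered 3 was the lowest of its group in all 4 groups. The log2 change was 5.32 ± 0.57 (SE; 39.9-fold) in WT and 4.90 ± 0.57 (29.9-fold) in brl3-2. The gene AT5G64060 lies on the minus strand of chromosome 5 at positions 25633455 to 25635789 of TAIR10.1, and no 50-base stretch of its exons occurs anywhere else in that genome, as for the other 6 members.

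Promoter windows are shown for the pair of members whose window held a motif that was searched, NAC103 and NAC032. Each window runs from 250 bases before to 50 bases after the annotated start (RefSeq, TAIR10.1), is written 5′ to 3′ on the gene's strand, and is in lower case except for the motif. The NAC103 window is chr5:25635740-25636039 on the minus strand, with the SOG1 motif, CTT and AAG separated by any 7 bases, marked by its outer triplets in capitals. The NAC032 window is chr1:29099589-29099888 on the plus strand, with the G-box CACGTG, the core of many abscisic acid response elements, in capitals.
NAC103: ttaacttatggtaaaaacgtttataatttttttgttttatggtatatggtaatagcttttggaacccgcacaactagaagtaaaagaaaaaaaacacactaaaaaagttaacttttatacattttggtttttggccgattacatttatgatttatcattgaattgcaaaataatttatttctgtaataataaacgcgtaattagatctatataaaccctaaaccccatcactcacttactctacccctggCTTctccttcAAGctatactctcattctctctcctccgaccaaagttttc
NAC032: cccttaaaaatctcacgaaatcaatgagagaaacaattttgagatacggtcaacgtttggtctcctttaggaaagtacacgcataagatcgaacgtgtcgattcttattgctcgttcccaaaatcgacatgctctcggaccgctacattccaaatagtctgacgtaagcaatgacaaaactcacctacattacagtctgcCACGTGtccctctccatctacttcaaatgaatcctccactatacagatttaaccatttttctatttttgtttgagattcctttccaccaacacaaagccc

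The match in NAC103, CTTCTCCTTCAAG, begins at the annotated start base, and the G-box of NAC032 begins 50 bases before the start. On either strand, 11.8% of the 27443 windows of protein-coding genes held the SOG1 motif, which reads the same on both strands, and 7.68% held CACGTG, and of the 7 members only the pair shown held one or the other. TCATCG, an element bound by NAC103 in endoplasmic reticulum stress, was in 8.63% of windows and in no member's. TGGGC, the core of the element through which NAC053 and NAC078 act on proteasome genes, was in 26% of all windows. It was in 0 of the 7 members' windows and in 20 of the 32 windows of listed proteasome genes. These matches describe letters in a window and are not evidence of binding.

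NAC053 and NAC078, the closely related proteasome regulators, differed in their values under zeocin. NAC053 (AT3G10500, chromosome 3, 3271217 to 3274176, plus strand) stood at 36.9, 32.2 and 53.9 CPM in WT mock and at 136.4, 144.9 and 151.4 CPM in WT zeocin. In brl3-2 it stood at 36.3, 38.0 and 43.8 CPM in mock and at 172.4, 168.8 and 132.8 CPM with zeocin. The treatments did not overlap in either genotype, with a log2 change of 1.81 ± 0.17 (SE; 3.51-fold) in WT and 2.00 ± 0.17 (4.01-fold) in brl3-2.

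NAC078 (AT5G04410, chromosome 5, 1243684 to 1246684, plus strand) was the most even of the members. It stood at 114.6, 130.6 and 126.1 CPM in WT mock and at 124.7, 115.1 and 119.3 CPM in WT zeocin. In brl3-2 it stood at 122.2, 118.0 and 117.4 CPM in mock and at 118.6, 112.5 and 114.6 CPM with zeocin. The groups overlapped in both genotypes, and the log2 change was -0.05 ± 0.06 (SE) in each, with 95% intervals from -0.18 to 0.09. Genes on the other strand cover 5.203% of its exon bases, and whether counting used strand is not given in the sources used here.

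NAC001 (AT1G01010, chromosome 1, 3631 to 5899, plus strand) had the smallest difference of the 5 members whose treatments did not overlap. It stood at 17.5, 20.5 and 28.7 CPM in WT mock and at 37.4, 39.9 and 39.4 CPM in WT zeocin. In brl3-2 the values were 20.4, 19.5 and 24.6 CPM in mock and 40.5, 37.8 and 32.7 CPM with zeocin. The log2 change was 0.80 ± 0.16 (SE; 1.74-fold) in WT and 0.79 ± 0.16 (1.72-fold) in brl3-2. Of 10 other membrane-anchored NAC genes on a list that may not be complete, 0 passed the edgeR threshold (adjusted p under 0.05) in either genotype. Over all genes, 4.07% rose in WT and 4.32% in brl3-2. The log2 changes of the 10 ran from -0.19 to 0.35 in WT and from -0.25 to 0.47 in brl3-2.

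NAC087 (AT5G18270, chromosome 5, 6040919 to 6043014, minus strand), the root cap cell death factor, stood at 9.81, 9.05 and 17.6 CPM in WT mock and at 34.5, 46.9 and 43.8 CPM in WT zeocin. In brl3-2 it stood at 10.9, 12.5 and 11.2 CPM in mock and at 44.5, 44.5 and 33.1 CPM with zeocin. The treatments did not overlap, with a log2 change of 1.77 ± 0.23 (SE; 3.40-fold) in WT and 1.82 ± 0.23 (3.53-fold) in brl3-2. Of its partner NAC046, the log2 change was 0.74 ± 0.28 in WT (adjusted p = 0.25) and 0.83 ± 0.28 in brl3-2 (adjusted p = 0.15, edgeR), neither past the threshold. Of 12 listed genes of the root cap and of developmental cell death, 0 passed in either genotype, where 4.07% and 4.32% of all genes rose. The 12 had log2 changes from -0.19 to 0.30 in WT and from -0.25 to 0.23 in brl3-2.

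NAC083 (AT5G13180, chromosome 5, 4196256 to 4197940, plus strand, with 1.59% of its exon bases covered by a gene on the other strand), the vessel repressor, stood at 24.4, 20.5 and 39.9 CPM in WT mock and at 54.9, 69.5 and 67.6 CPM in WT zeocin. In brl3-2 it stood at 30.4, 32.9 and 33.6 CPM in mock and at 72.5, 77.5 and 54.1 CPM with zeocin. The treatments did not overlap, with a log2 change of 1.17 ± 0.21 (SE; 2.25-fold) in WT and 1.07 ± 0.21 (2.104-fold) in brl3-2. Of the vessel and fibre regulators of the VND and NST groups, 6 of 9 passed the filter on low counts and 0 passed the test in either genotype. All 6 were VND genes, so the NST genes were not tested. Of 6 COR and RD genes, stress genes that NAC083 activates in leaves, 4 passed the filter and 0 passed the test. Over all genes, 4.07% rose in WT and 4.32% in brl3-2, so 0 is near that share in lists as short as these.

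NAC032 (AT1G77450, chromosome 1, 29099839 to 29101759, plus strand) overlapped between treatments in both genotypes. It stood at 14.6, 14.3 and 29.9 CPM in WT mock and at 18.5, 19.3 and 24.2 CPM in WT zeocin. In brl3-2 it stood at 16.4, 16.7 and 26.9 CPM in mock and at 19.4, 23.8 and 24.6 CPM with zeocin. The replicate numbered 3 was the highest of its group in all 4 groups. The log2 change was 0.07 ± 0.28 (SE) in WT and 0.18 ± 0.28 in brl3-2. Its relative ATAF2 was not called by edgeR with all libraries: it had a log2 change of 0.75 ± 0.20 in WT (adjusted p = 0.056) and 0.60 ± 0.20 in brl3-2 (adjusted p = 0.14). In WT it was called by DESeq2 (adjusted p = 0.007283), by limma-voom (adjusted p = 0.04897) and by edgeR without WT mock replicate 3 (adjusted p = 0.03286), and in brl3-2 by edgeR without brl3-2 mock replicate 3 (adjusted p = 0.01558). Without all 4 libraries numbered 3, edgeR called ATAF2 in both genotypes. Of 14 alternative settings, 10 did not call ATAF2 in WT and 12 did not in brl3-2. The relatives ATAF1 and NAC102 were not called in either genotype. ATAF1 had a log2 change of 0.09 ± 0.12 in WT and 0.15 ± 0.12 in brl3-2. NAC102 had 0.17 ± 0.22 in WT and 0.16 ± 0.22 in brl3-2.

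**Figure D1:**
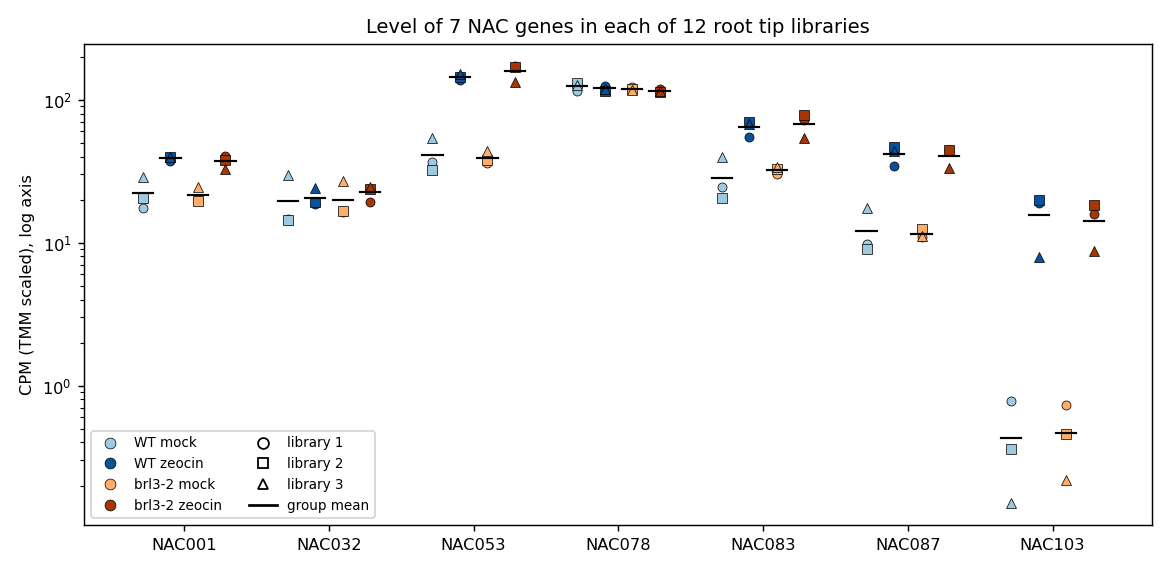
Level of each member in every library, in TMM-scaled CPM on a log scale, by group; each point is a library and each bar a group mean. NAC001, NAC053, NAC083, NAC087 and NAC103 were higher in every zeocin library than in any mock library of the same genotype, while NAC032 and NAC078 overlapped.

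With zeocin, 5 of the 7 members were past the threshold upward in WT and 5 of 7 in brl3-2, where 4.07% and 4.32% of the 19437 genes tested were. The same 5 members did not overlap between treatments in each genotype, against 9.86% and 13% of all genes that were apart in that direction. Because the members were picked with these changes known, nothing is read from these shares. The members' median log2 change was 1.17 in WT and 1.07 in brl3-2, beside -0.007 and -0.003 over all genes. In WT, fitting only the groups compared left 3 members past the threshold and 566 genes over the whole table, against 967. NAC001 and NAC083 were not among the 3, with log2 changes of 0.79 and 1.17. In brl3-2, NAC001 was not past it without mock replicate 1, mock replicate 2 or zeocin replicate 1, nor NAC083 without mock replicate 1 or zeocin replicate 2. Without brl3-2 mock replicate 2, the library high in photosynthesis genes, the log2 change in brl3-2 was 4.89 for NAC103, 1.99 for NAC053, 1.89 for NAC087, 1.09 for NAC083 and 0.73 for NAC001.

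The question of whether loss of BRL3 alters these genes was tested in mock, with zeocin, and as a difference between the genotypes' responses. In mock, 0 of the 7 members differed between brl3-2 and WT by edgeR, where 0.0257% of all genes did. An unadjusted p under 0.05 (edgeR) was found for 0 of the 7 and for 771 of the 19437 genes. With zeocin, 0 of 7 differed, where 0.0412% of all genes did. There, 0 of the 7 and 412 of the 19437 genes had an unadjusted p under 0.05. In a set of 7 genes, these counts of 0 are near the shares over all genes. For the difference between responses the count was 0 of 7, and 0 of the 19437 genes were called, although 194 had an unadjusted p under 0.05. DESeq2 and limma-voom also called 0 members in each of the 3 comparisons. All 7 members overlapped between genotypes under both treatments, where 7.72% of all genes in mock and 7.52% with zeocin did not overlap.

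How large a genotype difference these libraries leave possible depends on the gene. For NAC078 the 95% interval of the log2 difference between genotypes was -0.19 to 0.08 in mock and -0.19 to 0.08 with zeocin. Over the 6 members without NAC103 the differences ran from -0.09 to 0.19 in mock, with intervals reaching from -0.59 to 0.66, and from -0.07 to 0.13 with zeocin, with intervals reaching from -0.52 to 0.73. For NAC103 the interval was -1.33 to 1.92 in mock and -1.03 to 0.78 with zeocin. For the difference between responses the interval of NAC053, the member with the largest estimate above 0, was -0.32 to 0.71 around 0.19, and that of NAC103 was -2.28 to 1.45 around -0.41.

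**Figure D2:**
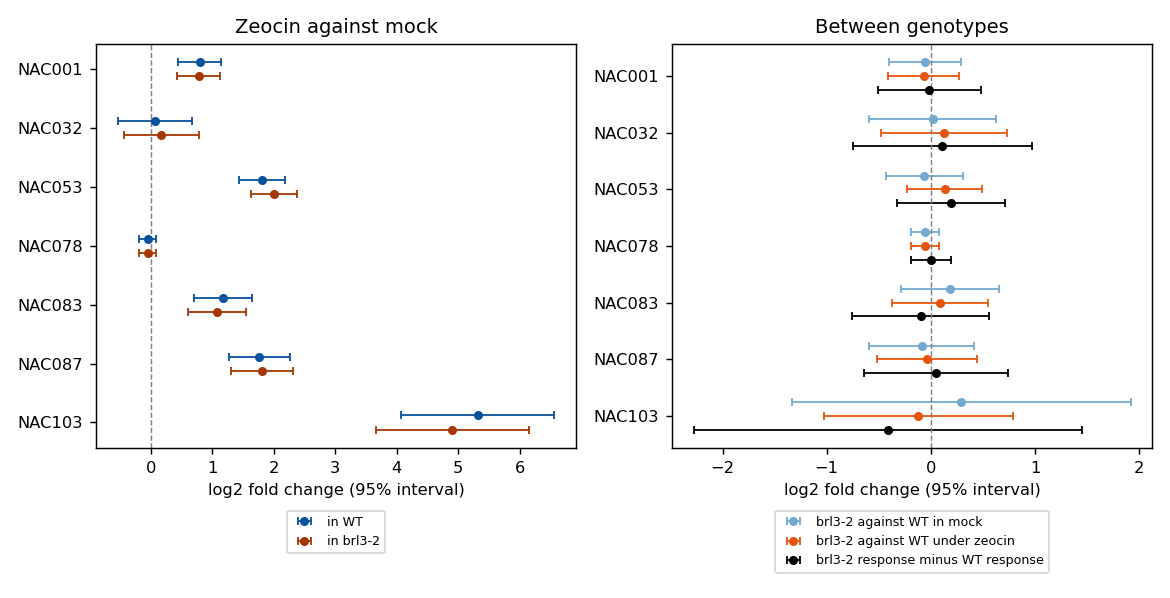
Log2 fold changes with 95% intervals for zeocin against mock in each genotype (left) and for the comparisons between genotypes and their interaction (right). In the comparisons between genotypes all intervals span 0, and those of NAC103 are the widest.

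Levels of different genes were compared as CPM per kilobase of exon. In mock, NAC078 led at 54.6 in WT and 52.6 in brl3-2, apart from NAC083 at 18.7 and 21.4. Next came NAC053 at 16.3 and 15.6, NAC001 at 13.2 and 12.7, and NAC032 at 11.3 and 11.6, and neighbours in that run overlapped, except NAC083 and NAC053 in brl3-2. NAC087 followed at 7.57 and 7.18, overlapping NAC032 in WT but not in brl3-2, and NAC103 came last at 0.245 and 0.268, apart from NAC087 in both genotypes. With zeocin NAC053 led at 57.3 in WT, overlapping NAC078 at 52.8, and at 62.8 in brl3-2, apart from NAC078 at 50.8. Next came NAC083 at 42.4 and 45.1, NAC087 at 26 and 25.3, NAC001 at 23.0 and 21.9, NAC032 at 11.9 and 13.1, and NAC103 at 8.91 and 8.14. NAC087 overlapped NAC001 in both genotypes, NAC032 overlapped NAC103 in WT, and NAC078 overlapped NAC083 in brl3-2.

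A set of 71 loci counted as NAC genes passed the filter on low counts: the 7 members, 61 others found by product name or symbol, and NTL8, NTL9 and TIP. Among the 61, AT5G52380 was taken in by its product name alone, and its place in the family is uncertain. Ranked by this level among the 71, NAC053 was 12 in WT mock and 2 in WT zeocin, and 14 and 1 in brl3-2. NAC103 was 64 and 28 in WT and 65 and 28 in brl3-2. NAC087 was 28 and 11 in WT and 29 and 12 in brl3-2. NAC078 was 2 in both mock groups and 4 in both zeocin groups.

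Of the 104 other loci with a NAC product name or symbol, which leave out NTL8, NTL9 and TIP, 61 passed the filter on low counts. With zeocin, 2 of the 61 (3.28%) rose in WT and 3 (4.92%) in brl3-2 by edgeR, and 0 fell, with a median log2 change of 0.07 and 0.05. Over all genes, 4.07% rose in WT and 4.32% in brl3-2, so these counts are near that share. The pair in both genotypes was NAC044 and NAC085. NAC044 rose by 3.45 ± 0.49 in WT (adjusted p = 0.0009) and by 3.82 ± 0.50 in brl3-2 (adjusted p = 0.00044). NAC085 went from 3 reads in WT mock to 116 in WT zeocin, and from 2 to 89 in brl3-2. NAC057 was called in brl3-2 alone (0.87 ± 0.23, adjusted p = 0.048), with 0.33 in WT (adjusted p = 0.64), and 8 of 14 alternative settings did not call it in brl3-2. SOG1 itself, the factor above them, had a log2 change of 0.04 ± 0.06 in WT and -0.03 in brl3-2, neither called.

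**Figure D3:**
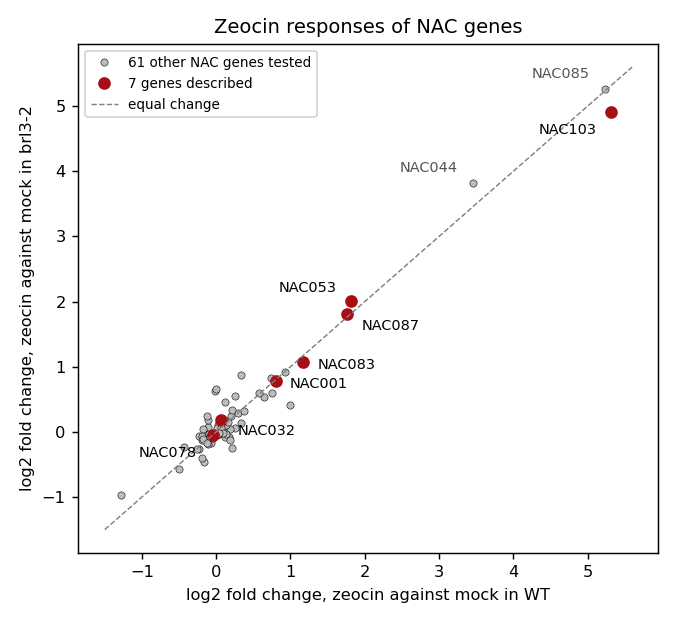
Log2 change with zeocin in WT (horizontal) against brl3-2 (vertical) for the members and the 61 other NAC genes that passed the filter. Members are marked apart from other family genes, and NTL8, NTL9 and TIP are not plotted. The axes come from separate mock and zeocin libraries of each genotype; most family genes lie near 0, and NAC103, NAC085 and NAC044 lie farthest out.

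Genes of the pathways that these factors are known for were examined beside them. The list for the 26S proteasome held 32 genes, with PA200 and CDC48 among them and PBC2 left out. Of these 32, 3 (9.38%) rose in each genotype, where 4.07% and 4.32% of all genes rose. The median log2 change was 0.08 in WT and 0.07 in brl3-2. PAD1, a subunit of the core particle, rose by 0.44 ± 0.07 in WT (adjusted p = 0.0016, edgeR) and by 0.50 in brl3-2 (adjusted p = 0.0005). RPN12a, of the regulatory particle, rose by 0.22 in WT (adjusted p = 0.027) and 0.27 in brl3-2 (adjusted p = 0.0073). PBD1, of the core particle, rose by 0.28 in WT (adjusted p = 0.036) and by 0.30 in brl3-2 (adjusted p = 0.021). In WT the calls of RPN12a and PBD1 were lost under 7 of 14 alternative settings each, and in brl3-2 that of PBD1 under 4. Above 0 were 26 of the 32 in WT and 28 in brl3-2, and that count has no test.

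Of 12 measured genes of the unfolded protein response, in which NAC103 acts, 1 (8.33%) passed in each genotype. Over all genes, 4.07% rose in WT and 4.32% in brl3-2, so 1 gene in a list of this size is near that share. BIP1, a chaperone of the endoplasmic reticulum, had a log2 change of 0.51 ± 0.08 in WT (adjusted p = 0.0015) and 0.34 in brl3-2 (adjusted p = 0.021), and 597 of its 2542 exon stretches of 50 bases also occur elsewhere in the genome, so reads may be shared with a near copy. Its call in brl3-2 was lost under 4 of 14 alternative settings, each of which left out 1 library: mock replicate 2 or 3, or zeocin replicate 1 or 2, with adjusted p from 0.07931 to 0.09618. BZIP60, whose product acts upstream of NAC103, had 0.34 in WT (adjusted p = 0.37) and 0.45 in brl3-2 (adjusted p = 0.16). The medians of the 12 were 0.03 and -0.07.

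Neighbours of the members on the chromosome gave other values. NAC052 ends 14 bases before NAC053 on the same strand and had a log2 change of 0.14 ± 0.06 in WT (adjusted p = 0.3) and 0.11 ± 0.06 in brl3-2 (adjusted p = 0.45). ERS and PI-4KBETA1, on either side of NAC103, had 0.08 and -0.06 in WT and 0.04 and -0.16 in brl3-2, none called. Of the neighbours that could be tested, 1 was called in 1 genotype: PBC2, a proteasome gene 1344 bases from NAC032, rose by 0.29 ± 0.06 in brl3-2 (adjusted p = 0.011) and had 0.20 ± 0.06 in WT (adjusted p = 0.092, edgeR).

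Likeness of pattern was measured as the root mean square difference between log2 CPM profiles over the 12 libraries, each centred on its own mean. The search covered the 17428 tested genes with a mean of at least 1 CPM, so genes below that level could not be named. The closest to NAC103 were GMI1, a gene of DNA repair by recombination, at 0.37, and PARP2, a poly(ADP-ribose) polymerase, at 0.55. The closest to NAC053 were DND1, which encodes a cyclic nucleotide-gated ion channel, and XTH28, which encodes a cell wall enzyme, both at 0.13. The closest to NAC087 were XTH28 and WRKY25, both at 0.14, and those closest to NAC083 were the formin gene FH4 and AT3G60070, both at 0.11. The closest to NAC001 were FAB1D, at 0.08, and WRKY26, at 0.09. The closest to NAC032 were APR3, of sulfate assimilation, at 0.09, and AT5G46890, at 0.13. The closest to NAC078, whose own profile was nearly flat, were AT1G55830, at 0.03, and AT1G73980, at 0.04. Among the members themselves NAC053 and NAC087 were closest, at 0.14.

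The libraries numbered 3 differed from the others for several members. Relative to the mean of replicates 1 and 2, NAC103 in replicate 3 was at a ratio of 0.266 in WT mock, 0.412 in WT zeocin, 0.368 in brl3-2 mock and 0.510 in brl3-2 zeocin. On the log2 CPM scale (prior count 2), NAC032 was higher in replicate 3 by 1.04 in WT mock and 0.36 in WT zeocin, and 0.69 and 0.20 in brl3-2. NAC053, NAC083, NAC087 and NAC001 were higher in WT mock replicate 3, by 0.64, 0.83, 0.90 and 0.60, and lower in brl3-2 zeocin replicate 3, with differences of -0.36, -0.47, -0.43 and -0.26. NAC078 stayed within -0.03 to 0.04 in all 4 groups. Without all 4 of these libraries, a setting chosen after seeing the data, the log2 change of NAC103 was 5.09 in WT and 4.84 in brl3-2, and that of NAC053 was 2.03 and 2.20. That of NAC087 was 2.11 and 1.93, that of NAC083 was 1.47 and 1.24, and that of NAC001 was 1.02 and 0.98. NAC078 stayed at -0.03 and -0.06. NAC032 had 0.38 in both genotypes and was then past the threshold, so 6 of 7 members were, while genes called over the whole table numbered 2185 in WT and 1974 in brl3-2, against 967 and 1045 with all libraries. In the same setting 8 of the other NAC genes were called in WT and 7 in brl3-2, ATAF2 in both (0.89, adjusted p = 0.005785, and 0.97, adjusted p = 0.003698, edgeR).

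**Figure D4:**
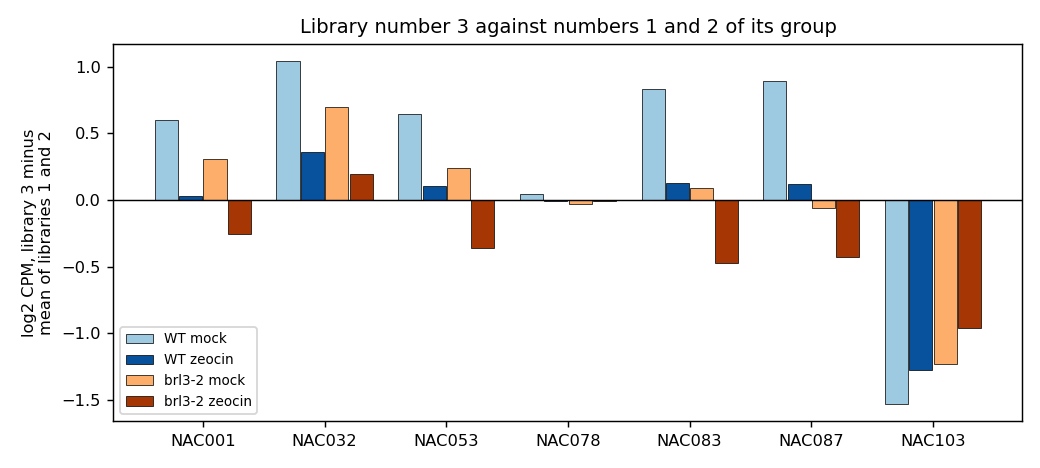
Difference in log2 CPM (prior count 2) between replicate 3 and the mean of replicates 1 and 2, as bars for each member and group. NAC103 lies below 0 in all 4 groups, NAC032 above 0 in all 4, and NAC078 near 0.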

How the data were processed

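Per the labels' protocols, RNA of root tips went into TruSeq Stranded mRNA libraries. The authors deposited raw read counts per gene in 1 column for each of the 12 libraries, and the labels describe 24 samples because each library was sequenced in 2 runs. The submitters' processing notes list TAIR10 as the build and name edgeR 3.34.1, featureCounts 1.6.2, HISAT2 2.1, Trimmomatic 0.38 and FastQC 0.11.2. For their settings, the use of strand and the merging of runs, nothing is given in the sources used here. Of 33297 rows, 1 without a gene name, at most 0.00393% of a library, was left out.

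The filter filterByExpr, at a minimum count of 10 and a total of 15, kept 19437 genes. Libraries were scaled by TMM, and edgeR 4.0.16 (R 4.3.3) quasi-likelihood tests were fitted with 1 coefficient per group over all 12 libraries. P-values were adjusted by Benjamini-Hochberg over all genes tested, with a threshold of 0.05. Levels are TMM-scaled CPM. Intervals are 95%. DESeq2 1.42.0 and limma 3.58.1 (voom) were alternatives, beside other scalings, no filter and leaving out libraries. Gene positions, exons and windows came from TAIR10.1 (RefSeq), which matched 33011 of the identifiers. The members, gene lists and tests were chosen with earlier results of these data known. Besides the members, the text names up to 3 called genes per list and contrast with the smallest p, close relatives of members, and the 2 genes most like each member. Chromosome neighbours were also named.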

Additional observations from a re-analysis of the deposited data

How the results depend on the processing

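Of 525 recomputed changes of the members, 9 were marked as moved. All 9 were in WT with zeocin and arose without WT mock replicate 3 or libraries numbered 3. For zeocin changes, moved means a shift at least as large as the member's spread within groups, and 0 called changes reversed sign. Between genotypes and for the interaction only the calls were compared, and 0 changed. Estimates there could shift and change sign: NAC087 in mock was -0.09 in the main fit and ran from -0.26 to 0.30. Members called with zeocin in WT were 5, but 3 when only the 2 groups compared were fitted and 6 without all 4 libraries numbered 3; leaving out 1 library gave 5 to 5. In brl3-2 they were 5, 6 without all 4 numbered 3, and 3 to 5 leaving out 1 library, with 3 only without brl3-2 mock replicate 1; the calls that ended were those of NAC001 and NAC083. Other NAC genes called in WT were 2, but 8 without all 4 numbered 3, and 2 to 5 leaving out 1 library, with 5 without WT mock replicate 3. In brl3-2 they were 3, but 5 without both WT libraries numbered 3, 7 without all 4 numbered 3, and 1 to 5 leaving out 1 library, with 1 without brl3-2 mock replicate 1 and 5 without brl3-2 zeocin replicate 3. NAC032, not called in WT, ranged from -0.11 to 0.52 leaving out 1 library. The cause was not tested. Members called between genotypes and for the interaction stayed 0 in all settings run. With the replicate block the members called were 5 in each genotype and the genes called over the whole table were 1041 in WT and 1144 in brl3-2, against 967 and 1045; no member call changed. Same-numbered libraries did not deviate together in every pair (correlations from -0.212 to 0.589), so the numbers were not treated as pairs. Counts of 7 to 27 reads limit what can be said of NAC103 in mock.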
